A study of Mus musculus with 12 samples.

Results

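The cap-binding Eif4 factors are the proteins that pick up the capped 5′ end of an mRNA and prepare it for the ribosome. The 10 genes considered were the cap-binding proteins Eif4e, Eif4e2 and Eif4e3, the scaffolds Eif4g1, Eif4g2 and Eif4g3, the RNA helicases Eif4a1 and Eif4a2, and the helicase cofactors Eif4b and Eif4h. They were found by gene symbol in the array's probe annotation and not by their measured values. Of the 44937 probe sets tested, which name 18163 genes, 33 carried a symbol of this family as their only symbol. They covered 9 of the 10 genes. Probe sets annotated with several symbols were not used. Eif4g1 had no probe set with its symbol alone and was not analysed here. For each gene the probe set with the highest mean signal over the 12 arrays stood for the gene, and the others served as a check.

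The arrays measured RNA of mouse embryos collected in the middle of the 2-cell stage, when the zygote's own genome has its first large burst of transcription. Zygotes came from F1 (C57BL6xDBA/2) females aged 3 to 5 weeks, pooled from 3 to 6 females and recovered 17 h after hCG. In the Oct4-MO group, zygotes were injected with a morpholino oligonucleotide (MO) against the translational start site of the Oct4 mRNA, which encodes the pluripotency transcription factor also called Pou5f1. In the Ccna2-MO group the MO was directed at the 5′ UTR of the mRNA for cyclin A2, a cell cycle regulator. Each injected pool had an uninjected pool drawn from the same embryos and cultured beside it, which gave 4 groups of 3 arrays: Oct4-MO, its uninjected pools, Ccna2-MO and its uninjected pools. The labels give 0.6 mM for both MOs, whereas the study's methods name a higher usual concentration for Ccna2-MO. A MO blocks translation and need not lower the targeted mRNA, so these arrays do not check the knockdown itself. No array held embryos injected with a mismatch or otherwise inactive MO, and in its array experiments the study took Ccna2-MO as the control for injection. Its single-embryo q-PCR instead used a MO against human globin, which the study reported to leave the assayed genes unchanged. Against uninjected pools the act of injection and the knockdown cannot be told apart, and the difference between the knockdowns is the test in which both arms were injected.

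Cap-dependent translation starts when eIF4E binds the cap, the eIF4G scaffold joins it to the helicase eIF4A, and eIF4B or eIF4H helps the helicase to unwind the leader of the mRNA. eIF4E2 (also called 4EHP) binds the cap without joining the scaffold eIF4G1 and is known as a translational repressor, while eIF4E3 is a further, less studied cap binder. Eif4g2 (also called DAP5) lacks the eIF4E binding site and serves cap-independent initiation. In the early mouse embryo maternal mRNAs are translated and then cleared while new transcripts appear, so the transcripts of this machinery are partly inherited and partly new.

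Each array stood for a pool of 20 embryos, with RNA worth 10 of them taken through 2 rounds of amplification, and only 3 arrays per group limit the precision of every value below. In such pools fewer expressing cells and less RNA per cell cannot be told apart. Signals are intensities on a linear scale, and differences are log2 fold changes of intensity plus 16, injected minus uninjected, from limma over all 12 arrays, with p-values adjusted over all probe sets by the Benjamini-Hochberg method. A gene was called changed at an adjusted p under 0.05. Of 11 oocyte and early embryo markers 10 were measured, and their summed signal lay between 14025 and 18752 on the 12 arrays, with Mos near background. The sum is carried by its brightest genes: 1 of the 10 passed, Zar1, a maternal factor, at 392 ± 180 in Ccna2-MO against 71.5 ± 34.5 (adjusted p = 0.033), and at 303 ± 5.92 in Oct4-MO against 73.6 ± 20.2 (adjusted p = 0.12). Of 7 measured 2-cell stage markers Trim43a was lower in Oct4-MO (adjusted p = 0.022) and Hspa1a higher in Ccna2-MO (adjusted p = 0.027). Without passing, each moved the same way with no overlap in the other knockdown. Trim43a was at -0.38 in Ccna2-MO (adjusted p = 0.24) and Hspa1a at 0.74 in Oct4-MO (adjusted p = 0.26). The part of stage in the members' values was not tested. Of 10 measured cumulus and granulosa markers 8 never reached a signal of 100 (the other two were Amhr2 and Star), with sums of 321 to 606 in Oct4-MO, 486 to 593 in its uninjected pools, 399 to 1154 in Ccna2-MO and 719 to 1083 in its uninjected pools. All 9 member genes had their brightest probe set among the 22468 brighter probe sets of the array, and 29 of the 33 probe sets lay there.

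Promoter sequence is shown for the E-box CACGTG and the octamer ATGCAAAT. The E-box is bound by Myc and related factors and known from the Eif4e promoter. The octamer is the class of motif that Oct4 binds. Neither MO was directed at Myc or a related factor. RefSeq promoter windows (build GRCm38.p6, 250 bases before to 50 after a start site) were at hand for 7 of the 9 measured genes, and Eif4e3 and Eif4g2 were not among them. Both strands were searched, and CACGTG reads the same on each. The 4 stretches below are all the E-boxes found in measured members, each written 5′ to 3′ on the gene's strand with the motif in capitals.
Eif4e, chr3:138527028-138527057, plus strand, motif 228 bases before the start: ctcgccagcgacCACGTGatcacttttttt
Eif4e, chr3:138527192-138527221, plus strand, motif 64 bases before the start: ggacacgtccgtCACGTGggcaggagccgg
Eif4a1, chr11:69672595-69672624, minus strand, motif 189 bases before the start: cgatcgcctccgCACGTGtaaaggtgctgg
Eif4h, chr5:134639488-134639517, minus strand, motif 96 bases before the start: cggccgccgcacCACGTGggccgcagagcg
The E-box stood in 3 of the 11 windows of these genes and in 7.15% of all 32851 windows. Because this motif was chosen as known from the Eif4e promoter, its presence in Eif4e was foreseen. The 2 shares are therefore no test of enrichment. The octamer was in 0 of the 11 windows and in 1.74% of all windows. Sequence outside these windows was not searched. The study's own list of candidate Oct4 targets, from sequence analysis or stem cell ChIP data, includes Eif4e2 among genes lower in the Oct4 knockdown. A match is a string of letters and says nothing about binding.

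In Oct4-MO embryos, no member passed the test, and the lowest p-values belonged to the cap binders Eif4e and Eif4e2, both of which had lower signals than the uninjected pools in all 3 pairs. Over the whole array 0.0734% of probe sets were called in this comparison (0.0289% higher and 0.0445% lower). At an unadjusted p under 0.05 the members counted 0 higher and 2 lower, where the whole array had 9.26% in either direction, 4.17% higher and 5.09% lower. Of the 9 genes 5 were below 0, as were 48.7% of all probe sets, and their median log2 fold change was -0.01, against 0.01 over all genes.

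In Ccna2-MO embryos, 1 member rose: Eif4e3, by 1.77-fold (adjusted p = 0.035), a call that was lost with the pairs of pools as a block (adjusted p = 0.061). None passed in the other direction. The whole array had 0.748% of probe sets called, with 0.338% higher and 0.409% lower. At an unadjusted p under 0.05 the members counted 1 higher and 3 lower (Eif4e, Eif4e2 and Eif4h), where the whole array had 14.1% in either direction, 6.89% higher and 7.16% lower. Of the 9 genes 5 were below 0, as were 46.7% of all probe sets, and their median was -0.17, against 0.03 over all genes.

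The difference between the knockdowns was tested as the change in Oct4-MO minus the change in Ccna2-MO, and no member passed it. The whole array had 0.00223% of probe sets called, all of them higher (1 probe set). At an unadjusted p under 0.05 the members counted 0 higher and 1 lower (Eif4e3), where the whole array had 6.65% in either direction, 3.01% higher and 3.64% lower. Of the 9 differences 5 were below 0, as were 51.6% over the array.

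**Figure D1:**
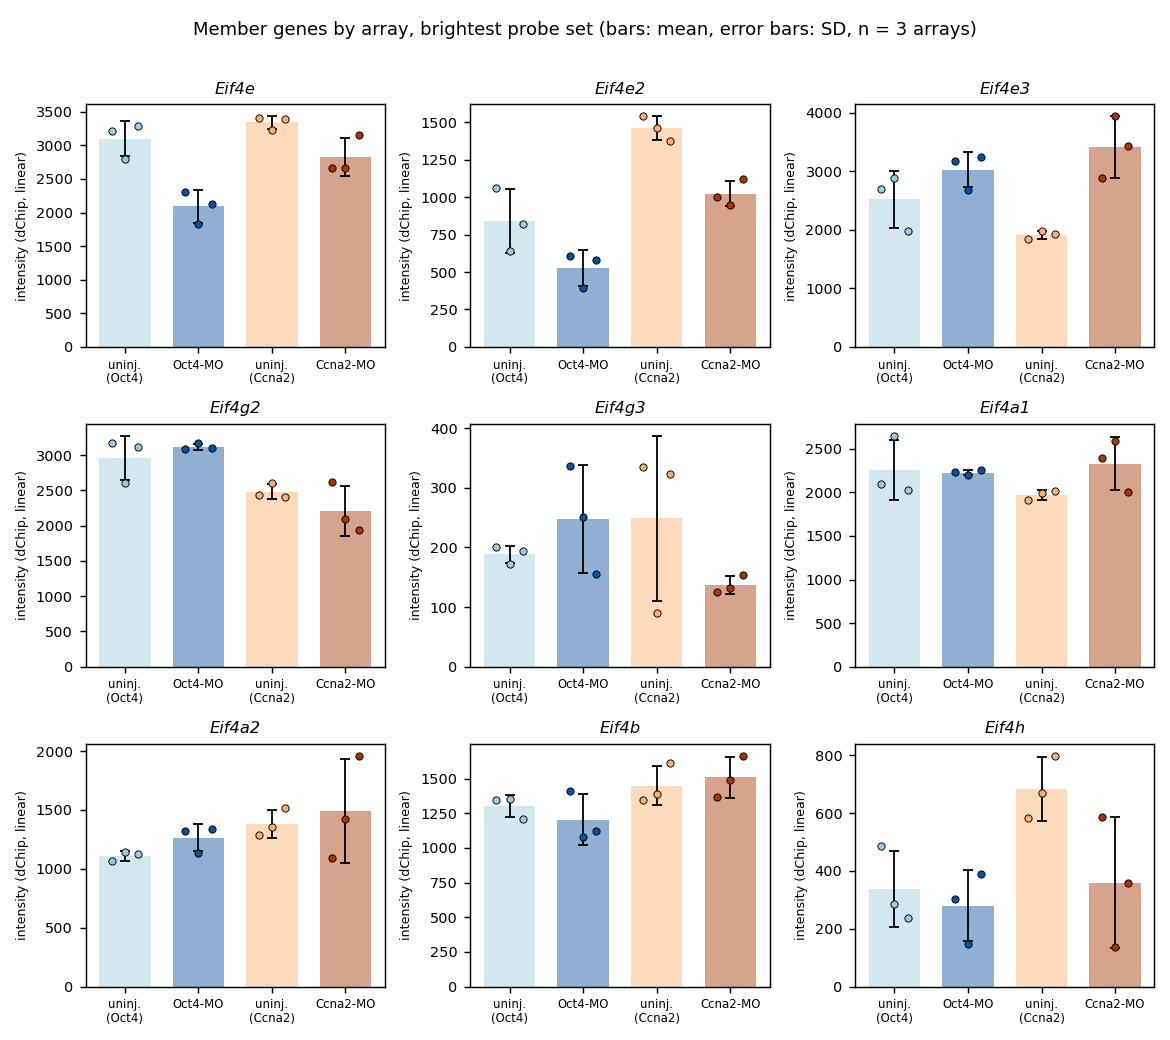
Signal of each member gene on its brightest probe set, 1 panel a gene, with a point for each of the 12 arrays, a bar for the mean of each group of 3 arrays and an error bar for its SD; the y axis is intensity on a linear scale from 0. The 3 Oct4-MO arrays of Eif4e lie below all other arrays of that gene, and the 3 Ccna2-MO arrays of Eif4e3 lie above the 3 uninjected arrays of the same experiment.

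Eif4e (chromosome 3, 138526191 to 138559696 in GRCm38.p6), the cap-binding subunit itself, was read by probe set 1450908_at. Its signal was 2313, 1828 and 2132 in the 3 Oct4-MO arrays and 3207, 2801 and 3286 in their uninjected pools. It was 2664, 2669 and 3148 in Ccna2-MO and 3402, 3231 and 3391 in the uninjected pools of that experiment. The injected and uninjected arrays did not overlap in either experiment, and every injected pool was below its own uninjected pool. Means were 2091 ± 245 against 3098 ± 260.3 (SD, n = 3) for Oct4-MO and 2827 ± 278 against 3341 ± 96.1 for Ccna2-MO. The groups ran from the uninjected pools of the Ccna2 experiment down through those of the Oct4 experiment and Ccna2-MO to Oct4-MO, and only the last step in that order was free of overlap.

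For Eif4e the limma log2 fold change was -0.57 in Oct4-MO (SE 0.11, 95% interval -0.80 to -0.33), or 1.48-fold lower, with an adjusted p of 0.090. It was -0.24 in Ccna2-MO (SE 0.11, interval -0.48 to -0.01, adjusted p = 0.34). The 2 changes differed by -0.32 (interval -0.66 to 0.01, adjusted p = 0.76), so the limma test did not separate the knockdowns. For Oct4-MO the value passed under some settings: with all 6 uninjected arrays as controls it was -0.62 (adjusted p = 0.014), among the 22468 brighter probe sets -0.57 (adjusted p = 0.048) and with array weights -0.61 (adjusted p = 0.024). It did not pass in the fit on 1450908_at with any single array left out.

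The other probe sets of Eif4e did not follow 1450908_at. The second brightest, 1423220_at, gave 2095, 1892 and 2026 in Oct4-MO and 1914, 2385 and 1824 in its uninjected pools, which overlap. It gave 2329, 2465 and 2294 in Ccna2-MO and 1424, 1891 and 1707 in the uninjected pools, so that here the injected arrays were the higher ones. Its log2 fold changes were -0.02 (SE 0.13, adjusted p = 0.99) and 0.50 (SE 0.13, adjusted p = 0.099).

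The dimmer set 1450909_at was at 0.70 in Oct4-MO (SE 0.34, adjusted p = 0.58), where the arrays overlapped, and at 1.22 in Ccna2-MO (SE 0.34, adjusted p = 0.12), where the injected arrays were higher with no overlap. The dimmest, 1444010_at, was at 0.26 (SE 0.41) and -0.91 (SE 0.41), with adjusted p = 0.93 and 0.35. Over the 12 arrays the log2 signals of these 3 sets had Pearson correlations of -0.33, -0.54 and 0.34 with 1450908_at, as a description of arrays that share groups.

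Because both sets sit on the same array, their ratio carries no scaling between arrays. The log2 ratio of 1423220_at over 1450908_at was -0.06 ± 0.10 in Oct4-MO and -0.60 ± 0.33 in its uninjected pools, a difference of 0.55. It was -0.25 ± 0.18 in Ccna2-MO and -1.0 ± 0.24 in the uninjected pools, a difference of 0.75. The exact two-sided permutation test gave p = 0.1 for each (n = 3), the smallest that 3 arrays against 3 allow. This pair of probe sets was chosen after its values were seen. Which transcripts or ends of Eif4e each set reads was not tested, and a direction for the gene as a whole is therefore not given: the mean of its 4 probe sets was at 0.095 in Oct4-MO and 0.14 in Ccna2-MO. The study itself proposes that Oct4 maintains Eif4e expression, and an Eif4e assay is among those listed for its q-PCR.

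**Figure D2:**
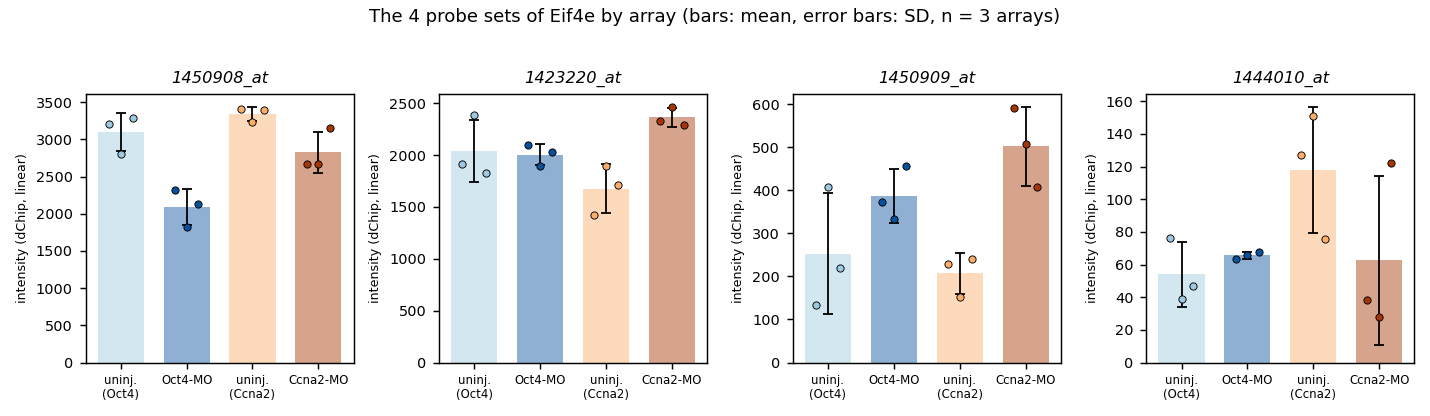
Signals of the 4 Eif4e probe sets on the 12 arrays, 1 panel a probe set, with points for arrays, bars for group means and error bars for the SD (n = 3); the y axis is intensity on a linear scale from 0. Set 1450908_at is lower in the injected groups of both experiments, whereas 1423220_at is at about the same level in Oct4-MO and higher in Ccna2-MO.

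Eif4e2 (chromosome 1, 87213911 to 87240488), the repressive cap binder, was read by 1435803_a_at. Its signal was 608, 393 and 581 in Oct4-MO and 1064, 641 and 821 in the uninjected pools, with no overlap. It was 1002, 950.4 and 1118 in Ccna2-MO and 1540.2, 1463 and 1377 in the uninjected pools, again with no overlap. Each injected pool was below its own uninjected pool in all 3 pairs of both experiments.

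The log2 fold changes of Eif4e2 were -0.65 (SE 0.21, interval -1.11 to -0.20, adjusted p = 0.31) and -0.51 (SE 0.21, interval -0.96 to -0.06, adjusted p = 0.29). Neither passed, and their difference was -0.15 (interval -0.78 to 0.49, adjusted p = 0.95). The uninjected pools of the experiments also stood apart, at 842 ± 212 and 1459.9 ± 81.7, and injected arrays are therefore set only against the pools of their own experiment. Of its 5 probe sets 2 were below 0 in Oct4-MO and 5 in Ccna2-MO. The second brightest, 1455108_at, read 271, 135 and 338 in Oct4-MO against 93.5, 133 and 113, higher with no overlap, at 0.96 (SE 0.79, adjusted p = 0.81). In Ccna2-MO its arrays overlapped, at -0.41 (adjusted p = 0.88), and its correlation with the brightest was -0.15 over 12 arrays. The set 1421985_a_at followed the brightest (Pearson r = 0.79), with -0.94 (adjusted p = 0.60) and -1.62 (adjusted p = 0.14).

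Eif4e3 (chromosome 6, 99621879 to 99692873) was read by 1417978_at. Its signal was 2889, 3943 and 3432 in Ccna2-MO and 1846, 1981 and 1923 in the uninjected pools, where every injected array was above every uninjected one. It was 3175, 2683 and 3239 in Oct4-MO and 2707, 2891 and 1976 in its uninjected pools, which overlap. Means were 3421 ± 527 against 1917 ± 67.8 (SD, n = 3) and 3032 ± 304 against 2525 ± 484.

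Eif4e3 rose in Ccna2-MO by a log2 fold change of 0.82 (SE 0.15, interval 0.50 to 1.14, adjusted p = 0.035), in 3 of 3 pairs. With the pairs of pools as a block the adjusted p was 0.061. The call was also lost in the fits without uninjected Ccna2-experiment array 1 (adjusted p = 0.12), 2 (0.069) or 3 (0.096), and without Ccna2-MO array 2 (0.11), while the change stayed between 0.63 and 0.94 under all 24 alternatives and passed in 12 of them. Leaving out uninjected array 1 or Oct4-MO array 3 of the Oct4 experiment, which alters only the shared estimate of spread, gave 0.055 and 0.052.

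In Oct4-MO the Eif4e3 change was 0.28 (SE 0.15, interval -0.05 to 0.60, adjusted p = 0.63), and it differed from that in Ccna2-MO by -0.54 (interval -1.0 to -0.08, adjusted p = 0.70), which did not pass. The second probe set, 1417977_at, also lay above 0 in both knockdowns. It read 2265, 3059 and 2834 in Ccna2-MO and 1706, 1596 and 1607 in the uninjected pools, a log2 fold change of 0.72 (SE 0.13, adjusted p = 0.033, and 0.064 with the block). In Oct4-MO it read 2329, 2291 and 2241 against 1531, 2001 and 1834, which did not overlap, at 0.36 (SE 0.13, adjusted p = 0.39). The 2 sets correlated at r = 0.84 over the 12 arrays.

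**Figure D3:**
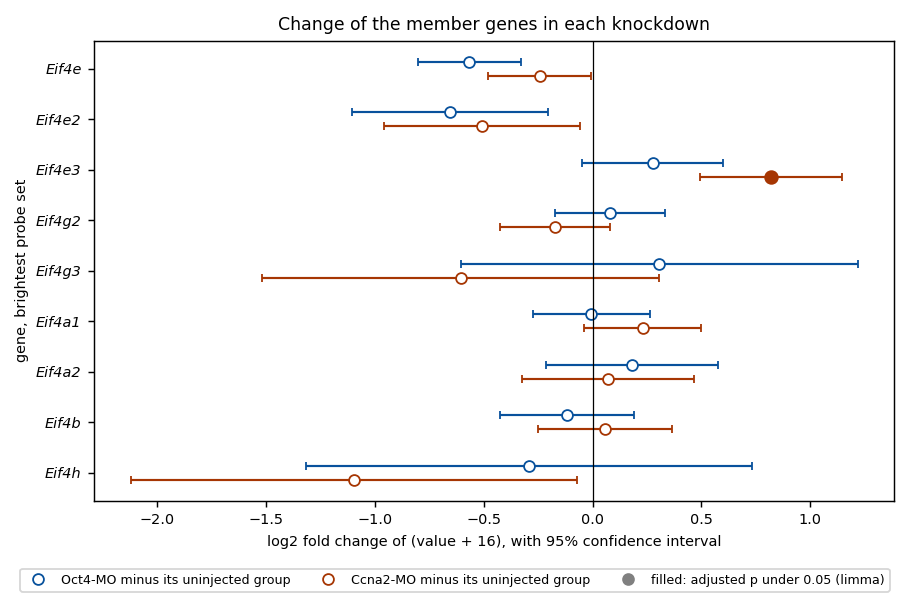
Log2 fold change (injected minus uninjected, intensity plus 16) of the 9 member genes on their brightest probe sets, with 95% intervals from limma, n = 3 arrays a group; filled points passed the adjusted test. Eif4e and Eif4e2 lie below 0 in both knockdowns with intervals that leave out 0, and Eif4e3 in Ccna2-MO, at 0.82, is the 1 value that passed the adjusted test.

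Among the scaffolds, Eif4g2 (chromosome 7, 111067985 to 111083030) had on 1452758_s_at 3119 ± 43.9 in Oct4-MO, 2963 ± 312 in its uninjected pools, 2213 ± 356 in Ccna2-MO and 2479.8 ± 107 in the uninjected pools (SD, n = 3). Injected and uninjected arrays overlapped in both experiments. The log2 fold changes were 0.08 (interval -0.17 to 0.33, adjusted p = 0.92) and -0.17 (interval -0.43 to 0.08, adjusted p = 0.55). The intervals hold changes of up to 0.33 in Oct4-MO and down to -0.43 in Ccna2-MO.

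The brightest sets of Eif4g2 differed in Oct4-MO. On 1415863_at it read 2355, 2236 and 1801 in Oct4-MO against 2469, 2418 and 2556, and 2425, 2333 and 2686 in Ccna2-MO against 2868, 3063 and 2947. Injected arrays were below the uninjected ones with no overlap in both, at -0.23 (SE 0.11, adjusted p = 0.56) and -0.25 (SE 0.11, adjusted p = 0.31). The log2 ratio of 1415863_at over 1452758_s_at was -0.56 ± 0.20 in Oct4-MO against -0.25 ± 0.13, a difference of -0.31. The exact two-sided permutation test gave p = 0.1 (n = 3), the smallest that 3 arrays against 3 allow. In Ccna2-MO the ratio was 0.17 ± 0.29 against 0.25 ± 0.035, a difference of -0.08 (exact permutation p = 0.7, n = 3). This pair of probe sets, too, was chosen after its values were seen. The correlation of the 2 sets was -0.44 over the 12 arrays, and the uninjected pools of the experiments also ordered oppositely on them, at 2963 and 2479.8 on the first and 2481 and 2959 on the other.

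Eif4g3 (chromosome 4, 137991779 to 138207086), a scaffold related to Eif4g1, was dim and scattered. Its brightest set, 1426833_at, read 336, 251 and 156 in Oct4-MO, 200.2, 172 and 193 in its uninjected pools, 125, 132 and 155 in Ccna2-MO and 335, 89.7 and 322 in the uninjected pools. The uninjected pools of the Ccna2 experiment alone spanned the whole range of the Ccna2-MO arrays. The log2 fold changes of 0.31 (interval -0.61 to 1.22) and -0.61 (interval -1.52 to 0.31) had adjusted p = 0.91 and 0.57. The second brightest set, 1446145_at, overlapped in both, at -0.19 (adjusted p = 0.96) and 1.33 (SE 0.49, adjusted p = 0.24), opposite in sign to the brightest. The dimmer 1430578_at was higher in Oct4-MO with no overlap, at 0.51 (adjusted p = 0.63). Of the 4 sets of Eif4g3 1 was below 0 in Oct4-MO and 1 in Ccna2-MO.

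Neither helicase gene passed in either knockdown. Eif4a1 (chromosome 11, 69666936 to 69672423), on 1434985_a_at, had 2228 ± 33.0 in Oct4-MO against 2255 ± 343, and 2330.2 ± 301 in Ccna2-MO against 1973 ± 56.1. Its log2 fold changes were -0.01 (interval -0.27 to 0.26, adjusted p = 1.0) and 0.23 (interval -0.04 to 0.50, adjusted p = 0.44). The sign in Oct4-MO turned under quantile normalization (0.077) and median centring (0.049), so no direction is given for it. The set 1430980_a_at was lower in Oct4-MO with no overlap, at -0.24 (SE 0.14, adjusted p = 0.65), and overlapped in Ccna2-MO, at -0.02. The set 1427058_at overlapped in both, at -0.12 and 0.06.

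Eif4a2 (chromosome 16, 23107468 to 23114132), which has a single probe set, 1450934_at, had 1264 ± 113 against 1110.2 ± 40.2 and 1491 ± 439 against 1383 ± 117. The log2 fold changes were 0.18 (interval -0.22 to 0.58, adjusted p = 0.85) and 0.07 (interval -0.33 to 0.47, adjusted p = 0.91). The wide SD in Ccna2-MO came from arrays at 1091, 1420.2 and 1962.

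Of the helicase cofactors, Eif4b (chromosome 15, 102073773 to 102097173), on 1426379_at, had 1205 ± 182 in Oct4-MO against 1302 ± 80.5, and 1509 ± 149 in Ccna2-MO against 1449.8 ± 140.3. Its log2 fold changes were -0.12 (interval -0.42 to 0.19, adjusted p = 0.89) and 0.06 (interval -0.25 to 0.36, adjusted p = 0.91), with the groups overlapping in both experiments. The second brightest set, 1426378_at, was at -0.31 in Oct4-MO (adjusted p = 0.67), where the arrays overlapped. In Ccna2-MO it was lower with no overlap, at -0.23 (SE 0.18, adjusted p = 0.62). The dimmer 1426380_at overlapped in both, at -0.08 and 0.15.

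Eif4h (chromosome 5, 134619872 to 134639409) varied the most between arrays of 1 group. On 1416941_s_at it read 305, 146 and 388 in Oct4-MO and 487, 285 and 238 in its uninjected pools. It read 587, 135 and 357 in Ccna2-MO and 582, 668 and 799 in the uninjected pools. A single Ccna2-MO array, at 587, reached into the uninjected range. The log2 fold changes were -0.29 (interval -1.32 to 0.73, adjusted p = 0.93) and -1.10 (interval -2.12 to -0.07, adjusted p = 0.32).

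The next brightest sets of Eif4h, in order, were also lower in Ccna2-MO, here with no overlap: 1438554_x_at at -1.79 (SE 0.56, adjusted p = 0.16) and 1451521_x_at at -1.01 (SE 0.38, adjusted p = 0.25). The suffix of both names marks probes that may also match other transcripts. A dim set, 1442942_at, had the lowest p of any member probe set of this gene in Oct4-MO, at 10.6, 19.3 and 12.8 against 189.7, 55.3 and 78.2 (log2 fold change -1.89, SE 0.52, adjusted p = 0.23). The dim 1445746_at went the other way in Ccna2-MO, higher with no overlap, at 0.82 (SE 0.48, adjusted p = 0.48). In Oct4-MO 1447070_at was higher with no overlap, at 0.34 (SE 0.27, adjusted p = 0.79). These sets were singled out after their values were seen, and none passed. Of all 6 sets of Eif4h 4 were below 0 in Oct4-MO and 5 in Ccna2-MO.

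Across all 33 probe sets, 0 passed in Oct4-MO and 2 passed in Ccna2-MO, both of Eif4e3. Injected and uninjected arrays did not overlap for 5 higher and 6 lower sets in Oct4-MO, where the whole array had 8.24% higher and 8.4% lower, and for 5 higher and 7 lower in Ccna2-MO, where it had 8.64% and 8.27%. In either direction the shares of the whole array were 16.6% and 16.9%, and among its 22468 brighter probe sets, where most members lie, 21.9% and 22.7%. All probe sets of a gene lay on the same side of 0 in both knockdowns for Eif4e3 (2 sets, higher) and Eif4a2 (a single set), and in 1 knockdown for Eif4e2 (5 lower in Ccna2-MO), Eif4a1 and Eif4b (3 lower each in Oct4-MO, where the sign of the brightest Eif4a1 set depended on the normalization).

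**Figure D4:**
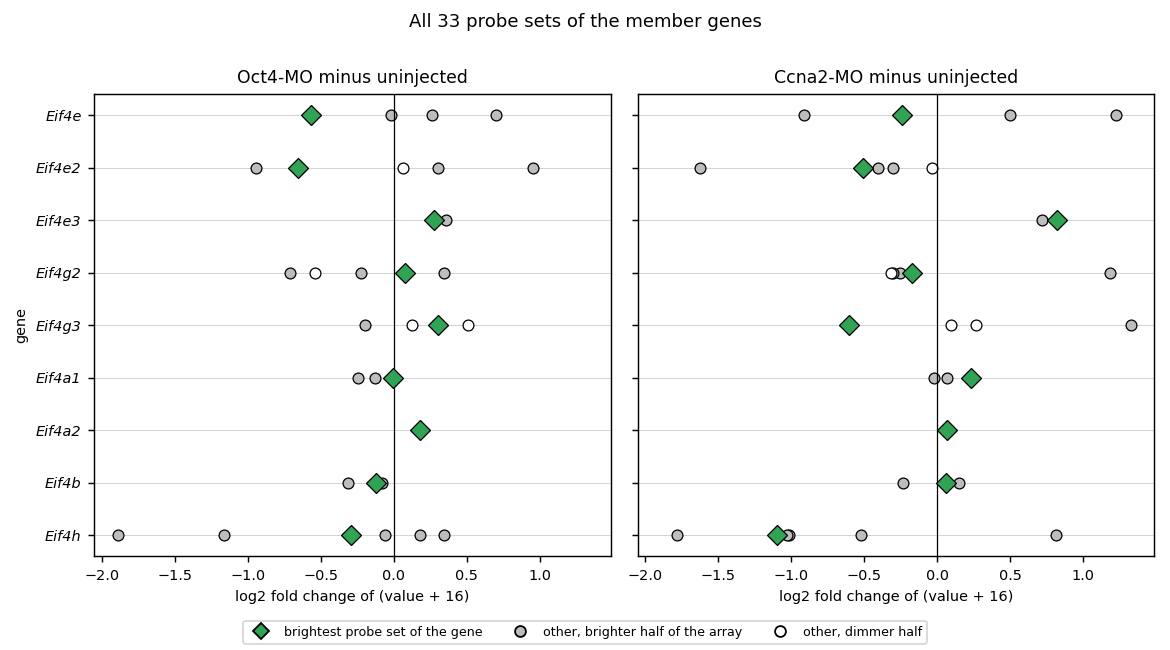
Log2 fold changes of all 33 member probe sets, grouped by gene, in Oct4-MO (left) and Ccna2-MO (right), with the brightest set of each gene as a diamond and sets outside the brighter 22468 as open points. The sets of Eif4e, Eif4g2 and Eif4h fall on both sides of 0 in at least 1 panel, whereas both Eif4e3 sets lie above 0 in each.

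The spread among replicate arrays was small for most members. The SD within groups, pooled over the 4 groups on the log2 scale, had a median of 0.20 over the 9 genes, against 0.39 over the 11417 genes whose brightest set was among the 22468 brighter ones. It was lowest for Eif4e, at 0.13, and highest for Eif4g3, at 0.56, and Eif4h, at 0.67. The comparison was not matched for brightness. Eif4e ranked 338 from the brightest probe set, and the dimmest members, Eif4h and Eif4g3, ranked 5507 and 8326. The part of brightness in the spread was not tested. Over the 12 arrays Eif4e and Eif4e2 correlated at r = 0.88, Eif4e and Eif4e3 at -0.54 and Eif4g2 and Eif4b at -0.79, where the points share groups and pools. Of 11416 other genes, those whose log2 signal was most like that of Eif4e were Nolc1 (r = 0.974), Trim43a (r = 0.973) and Atf7ip2 (r = 0.969). Those most like Eif4e3 were Szrd1 (r = 0.943), Dbi (r = 0.940) and Cs (r = 0.934).

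The proteins that act on the cap complex were measured for 27 of 30 listed partners and regulators of eIF4E, and none passed in either comparison. In Oct4-MO 1 was higher and 4 were lower at an unadjusted p under 0.05, beside 4.17% and 5.09% of all probe sets, and the list median was -0.07. In Ccna2-MO 4 were higher and 4 lower, beside 6.89% and 7.16%, with a median of 0.02. Both medians lay within 0.1 of those over all genes. Nearly all genes of this list and of the lists below lie among the 22468 brighter probe sets. Of those sets 1130 were higher and 1907 lower in Oct4-MO at an unadjusted p under 0.05, and 2182 and 2561 in Ccna2-MO.

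The lowest p-values in both knockdowns included Mknk1, 1 of the pair of related kinases, Mknk1 and Mknk2, that phosphorylate eIF4E. Mknk1 read 85.9, 35.6 and 51.8 in Oct4-MO against 101, 135 and 175, and 71.3, 65.6 and 59.8 in Ccna2-MO against 219, 148 and 234. No injected array reached the uninjected range, at log2 fold changes of -1.08 (SE 0.32, adjusted p = 0.26) and -1.39 (SE 0.32, adjusted p = 0.068). Neither passed, although the Ccna2-MO value did among the 22468 brighter probe sets (adjusted p = 0.038). Mknk2 was at -0.01 in Oct4-MO (adjusted p = 1.0) and 0.02 in Ccna2-MO (adjusted p = 0.98), with 1444 ± 151 against 1451 ± 80.0 and 1901 ± 481 against 1864 ± 404.

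Larp1, which binds the cap of ribosomal protein mRNAs, was at 217 ± 156 against 513 ± 67.1 in Oct4-MO and 213 ± 150.3 against 792 ± 189 in Ccna2-MO. Its log2 fold changes were -1.42 (SE 0.59, adjusted p = 0.48) and -2.11 (SE 0.59, adjusted p = 0.12), with no overlap in either. The nuclear cap binder Ncbp1 was at -0.55 in Oct4-MO (SE 0.20, adjusted p = 0.38), and its partner Ncbp2 was at -0.97 in Ccna2-MO (SE 0.25, adjusted p = 0.093, and 0.047 with the pairs as a block).

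The mTORC1 pathway, which frees eIF4E from its inhibitors, had 21 of 23 listed genes measured and none passed. In Oct4-MO 1 was higher and 2 lower at an unadjusted p under 0.05 (median 0.05), and in Ccna2-MO 2 were higher and 1 lower (median 0.17), where all probe sets had 9.26% and 14.1% in either direction. Lowest in p in Oct4-MO were Rps6, a ribosomal protein phosphorylated downstream (1.03, adjusted p = 0.35), and the mTORC1 inhibitors Sesn2 (-0.41, adjusted p = 0.52) and Ddit4 (-0.29, adjusted p = 0.53). The signal of Rps6 was low, at 60.7 ± 18.6 against 21.4 ± 6.45. In Ccna2-MO they were the mTOR inhibitor Deptor (0.62, adjusted p = 0.22) and, of the factors that hold mTORC1 at the lysosome, Lamtor1 (-0.40, adjusted p = 0.27) and the GTPase Rraga (0.67, adjusted p = 0.35).

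Of 23 other initiation factors outside the cap complex 21 were measured and none passed. In Oct4-MO 1 was higher and 2 lower at an unadjusted p under 0.05 (median -0.07), and in Ccna2-MO 0 were higher and 5 lower (median -0.08), where 5.09% and 7.16% of all probe sets were lower. Eif6, which keeps the large ribosomal subunit from joining, was the lowest in p in Ccna2-MO and among the 3 lowest in Oct4-MO. It read 1144 ± 348 against 1955 ± 231 in Oct4-MO and 1419 ± 376 against 2367 ± 130.5 in Ccna2-MO, at -0.80 (SE 0.23, adjusted p = 0.25) and -0.77 (SE 0.23, adjusted p = 0.14), with no overlap in either.

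In Oct4-MO the others were Eif2s3x, a subunit of the initiator tRNA carrier eIF2, at -0.72 (SE 0.19, adjusted p = 0.20), and the eIF2 kinase Eif2ak1, at 1.13 (SE 0.32, adjusted p = 0.24). With all 6 uninjected arrays as controls Eif2s3x and Eif6 passed in Oct4-MO (adjusted p = 0.042 and 0.044). For Eif6 the uninjected pools of the experiments stood apart, at 1955 ± 231 and 2367 ± 130.5. Its value under that setting therefore also holds the offset between experiments. In Ccna2-MO they were Eif1a, a scanning factor, at -1.12 (SE 0.38, adjusted p = 0.19), and Eif2b5, a subunit of the exchange factor for eIF2, at -0.63 (SE 0.23, adjusted p = 0.23).

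**Figure D5:**
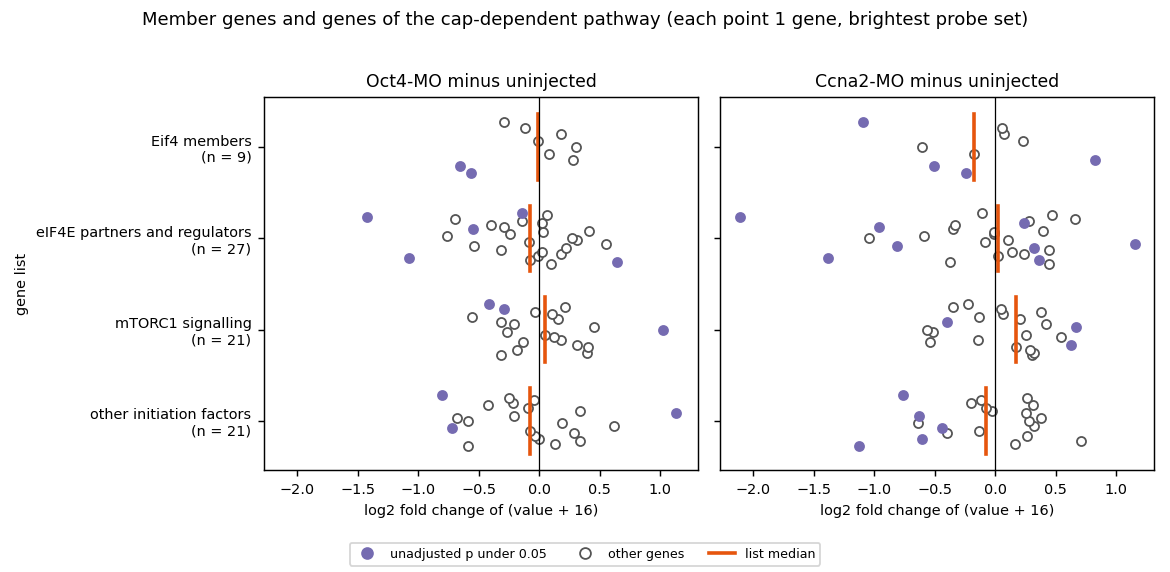
Log2 fold changes of the member genes and of the 3 lists of related genes (partners and regulators of eIF4E, mTORC1 signalling, other initiation factors) in Oct4-MO and Ccna2-MO, a point for each gene on its brightest probe set, filled where the unadjusted p is under 0.05, and a vertical bar for the list median. The list medians lie between -0.17 and 0.17, and filled points stand on both sides of 0 in most lists.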

How the data were processed

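The authors hybridised amplified cDNA to Affymetrix Mouse Genome 430 2.0 arrays and deposited intensity values normalized with dChip. They are on a linear scale. The version and model options of dChip were not found in the labels or methods used here. Medians per array were 22.71 to 25.48, and 39.3% to 42.7% of values were under 16. Of 45001 probe sets 64 array controls were left out. In the platform annotation 34849 of the rest had 1 gene symbol, 928 several and 9160 none, and only those with 1 were named. Symbols and coordinates were checked against RefSeq (GRCm38.p6) by gene ID.

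Groups followed the sample labels. From the deposited intensities, log2(value + 16) was fitted with limma 3.58.1 (R 4.3.3) as 4 group means over 12 arrays with an intensity trend, since the study's own ranking statistic is unpublished, and adjusted over 44937 probe sets by Benjamini-Hochberg. Fold changes of dim probe sets are understated by the added 16. The fit was checked on simulated data. Per the labels, each uninjected pool came from the embryo pool of an injected one and was cultured beside it, so the numbers pair the arrays. Correlations of paired deviations were 0.10, 0.061 and -0.00013 in the Oct4 experiment and -0.015, 0.11 and 0.15 in the Ccna2 experiment. The members and lists were chosen with earlier results of these data known. All members were named, and from each list every gene that passed or else the 3 with the smallest p in each comparison. Alternatives were the block for pairs, other controls, pseudocounts, filters, normalizations, weights and tests, and leaving out each array.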

Additional observations from a re-analysis of the deposited data

How the results depend on the processing

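How many probe sets passed depended on the settings. For Oct4-MO, 33 passed, against 4 with the replicate block for pairs, 452 with all 6 uninjected arrays as controls, 0 with only the 6 arrays of the comparison (limma, 4933 at an unadjusted p under 0.05), 16 without the intensity trend, 18 with a pseudocount of 64, 92 in the 22468 brighter probe sets, 257 with array weights and 0 by an unpaired t statistic with Benjamini-Hochberg adjustment (4292 unadjusted), which is 1 part of the study's ranking and not its procedure. For Ccna2-MO, 336 passed, against 124 with the replicate block, 3 with only its 6 arrays, 711 in the brighter sets, 87 with array weights and 0 by the t statistic (4242 unadjusted). For the difference between knockdowns, 1 passed in limma (2988 unadjusted), against 53 with all 6 uninjected arrays and 0 with the replicate block (3285 unadjusted), without the trend (3064), with a pseudocount of 64 (2873) or in the brighter sets (1816). Leaving out 1 array gave 0 to 87, 17 to 652 and 0 to 3. With an array left out, its group keeps 2, and the spread is pooled over all groups. The difference was not run with 6 arrays or by the t statistic.

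Among members, the Eif4e3 call in Ccna2-MO was lost with the replicate block (adjusted p = 0.061), all 6 uninjected arrays (0.63, adjusted p = 0.072), only 6 arrays (0.15), no trend (0.073), array weights (0.067) and the t statistic (0.36), and the block changed no other member's call. Averaging all probe sets of a gene turned the sign for Eif4e in Oct4-MO (0.095) and Ccna2-MO (0.14), Eif4g2 in Oct4-MO (-0.21) and Ccna2-MO (0.028) and the difference (-0.24), Eif4g3 in Ccna2-MO (0.27) and the difference (-0.082), Eif4b in Ccna2-MO (-0.0075) and the Eif4e2 difference (0.52). Eif4a1 in Oct4-MO turned with all 6 uninjected arrays (0.084), quantile normalization (0.077), median centring (0.049) and weights (0.014). With all 6 uninjected arrays the differences turned for Eif4a2 (-0.20) and Eif4h (-0.23). Leaving out 1 array gave values on both sides of 0 for the Eif4e2 difference (-0.32 to 0.046), in Oct4-MO for Eif4g2 (-0.011 to 0.13), Eif4a1 (-0.079 to 0.11) and Eif4h (-0.57 to 0.092), in Ccna2-MO for Eif4a2 (-0.15 to 0.27) and Eif4b (-0.017 to 0.13), and for the Eif4a2 difference (-0.091 to 0.33). None of the turned values passed, and the causes were not tested.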

Other observations

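Among the 27 partners and regulators of eIF4E, injected and uninjected arrays did not overlap for 2 higher and 6 lower genes in Oct4-MO and for 3 higher and 7 lower in Ccna2-MO. In either direction 16.6% and 16.9% of all probe sets did not overlap. Among the 22468 brighter probe sets, where 26 of the 27 lie, the shares were 21.9% and 22.7%. A few of them outside the named rule are given as values chosen after they were seen. Pabpc1, the poly(A)-binding protein that bridges the tail of an mRNA to eIF4G, read 877 ± 168 in Oct4-MO against 1277 ± 202 and 1094 ± 322 in Ccna2-MO against 1924 ± 551 (SD, n = 3), with limma log2 fold changes of -0.54 (adjusted p = 0.56) and -0.81 (adjusted p = 0.17). Eif4ebp2, an inhibitor of eIF4E, read 348 ± 77.4 in Oct4-MO against 214 ± 27.0, at 0.64 (adjusted p = 0.49), and 317 ± 62.5 in Ccna2-MO against 422 ± 124, where the arrays overlapped, at -0.37 (adjusted p = 0.59). Cpeb1, which represses maternal mRNAs until they are polyadenylated, read 132 ± 26.7 in Oct4-MO against 223 ± 26.0, at -0.70 (adjusted p = 0.57), and 211 ± 108 in Ccna2-MO against 118 ± 21.0, where the arrays overlapped, at 0.66 (adjusted p = 0.42). The difference of its changes was -1.36 (adjusted p = 0.67). None of these passed the test.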
